A study of Mus musculus with 81 samples.

Results

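The RNA of male germline cells was compared with that of the somatic cells of the same organ at the loci of mouse endogenous retroviruses (mERVs), in the control animals of the F1 generation. The comparison holds 9 of the 81 libraries of the series, chosen by their labels: 4 libraries of P5 germ cells and 5 libraries of P6 somatic cells, all from testes of E18.5 fetuses whose F0 dams drank the DMSO vehicle and no tributyltin (TBT). The series exposed F0 dams to 50 nM TBT or to DMSO and followed RNA and DNA methylation of fetal testicular cells in the F1 and F3 generations. All animals were OG2 transgenic mice kept on a C57BL/6J background, in which the promoter and distal enhancer of Pou5f1 drive EGFP in germline cells. P5 cells were sorted by FACS as EGFP+ cells, beside another EGFP+ gate called P4 that differs in side scatter. P6 cells were the EGFP- remainder, a mixture of the somatic cell types of the testis, so that no P6 value belongs to 1 cell type. The P5 libraries carried the label numbers 43-4, 43-5, 44-1 and 48-4, and the P6 libraries 1, 2, 3, 4 and 12. The labels do not state whether the libraries of a group came from separate animals, so the p-values measure only the spread between these libraries, which may be technical. P5 libraries 43-4 and 43-5 share the first part of their label number, were counted as separate libraries throughout, and were averaged as 1 in an alternative.

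An endogenous retrovirus is the remnant of a retroviral insertion into the germline. A complete copy has an internal region with the viral genes between long terminal repeats (LTRs), which hold the promoter and the polyadenylation signal, while many copies have been reduced to a solitary LTR. Copies are grouped into the ERV1, ERVK, ERVL and ERVL-MaLR families and, within these, into species, which is the name RepeatMasker gives a repeat, with the suffix int for an internal region. Before birth, male germ cells restore the DNA methylation that they erased earlier, and PIWI-interacting RNAs (piRNAs) direct part of it to retrotransposons, whereas somatic cells keep most copies silent by methylation and histone marks. The libraries were made from poly(A) RNA with an oligo-dT primer and do not keep strand, so that sense and antisense reads could not be told apart.

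Reads were counted at 970384 loci of 680 species, of which 64.5% lay outside annotated genes, 33.0% in introns and 2.48% in exons. Between 3935531 and 5761940 reads per P5 library and between 3328166 and 3792180 per P6 library fell at these loci. Values are given in CPM, scaled to a common total of these reads after joint TMM scaling of the 9 libraries. P5 and P6 cells of F1 were deposited in separate files and carry different label schemes, so that cell population, file and set of libraries cannot be told apart. No pair of libraries within a group was a duplicate, where chi-square divided by its degrees of freedom was, over loci, between 2.33 and 5.35 in P5 cells and between 1.62 and 2.26 in P6 cells. Among P5 libraries, 44-1 stood apart. It detected 176896 loci at an equal depth of 3328166 reads against 204732 to 210140 in the other P5 libraries, and 47% of its reads at loci at least 10 kb from genes came from loci of 20 or more reads, against 18% to 22.7%.

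At the LTR loci inside genes, most germ cell genes were higher in P5 cells and most Sertoli cell and mesenchyme genes higher in P6 cells, while most Leydig cell and blood genes were not called and most endothelial genes were higher in P5 cells. A host gene was measured as the sum of reads over the LTR loci in its introns and exons. Whether these reads came from the host transcript was not tested. Of 11964 host genes tested, 5640 (47.1%) were higher in P5 and 3133 (26.2%) higher in P6 cells at a false discovery rate (FDR) of 0.05 by limma with Benjamini-Hochberg adjustment. The median log2 difference over these genes was 0.58. After the read density of each library far from genes was subtracted, 5095 (44.2%) of 11534 were higher in P5 and 3221 (27.9%) higher in P6 cells. In bulk samples, fewer cells of a type and less RNA per cell cannot be told apart.

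Of 42 germ cell genes, 28 held an LTR locus, 25 passed the filter on low values, 24 were higher in P5 cells and 1 was lower. Their median log2 difference was 4.99, and 5.10 with the 6 genes that had no read in any P6 library set at their bound. Dazl, an RNA-binding protein needed for germ cell development, had 412, 387, 417 and 375 CPM in the P5 libraries and 0 to 0.504 CPM in the P6 libraries. Ddx4, the germline RNA helicase known as VASA, stood at 1505 ± 154 CPM (SD, n = 4) in P5 cells and 2.63 ± 1.87 CPM (SD, n = 5) in P6 cells. No P5 library of either gene came near a P6 library. Sycp1, a component of the synaptonemal complex of meiosis, had 2325 P5 reads and none in P6 cells, which puts it at least 837-fold higher in P5 cells when 3 reads over the P6 group are taken as the floor. Pou5f1, whose regulatory sequences drive the EGFP used for the sort, had 60.7 ± 13.9 CPM (SD, n = 4) in P5 cells and 2 reads in all in P6 cells. The exception was Etv5, a transcription factor of both Sertoli cells and spermatogonial stem cells, with 18.7 ± 5.72 CPM (SD, n = 4) in P5 against 72.5 ± 5.77 CPM (SD, n = 5) in P6 cells.

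Genes of the piRNA pathway and of transposon silencing differed in both directions. Of 46 such genes 41 were tested, with 27 higher in P5 and 8 higher in P6 cells, beside 47.1% and 26.2% of all host genes, and a median log2 difference of 2.60. Mov10l1, the helicase that feeds precursor transcripts into piRNA production, had 1359, 1800, 1522 and 2056 CPM in P5 cells and 0.259 ± 0.363 CPM (SD, n = 5) in P6 cells, a log2 difference of 11.90 (SE 0.45, limma FDR 2.56e-08). Morc1, an ATPase that represses transposons in male germ cells, differed by 11.54 (SE 0.69, limma FDR 2.48e-07) on the log2 scale. Mael, a component of the germ cell granules in which piRNAs are made, differed by 10.57 and the helicase Tdrd9 by 10.38. All P5 libraries lay above all P6 libraries for these 4 genes. Piwil2 and Piwil4, the PIWI proteins that carry piRNAs in fetal male germ cells, had 1384 ± 356 and 236 ± 75.4 CPM (SD, n = 4) in P5 cells. In P6 cells, Piwil2 had 6.34 ± 2.30 CPM (SD, n = 5) and Piwil4 a single read, which gives Piwil4 a P5 to P6 ratio of 4609 with an exact 95% interval of counting error from 827 to 182105. Tdrd1 and Tdrd5, Tudor proteins of the same granules, differed by 7.21 and 5.19 on the log2 scale. The co-chaperone Fkbp6 alone contributed 21460 of the 35324 to 42574 CPM that the list summed to in P5 cells, against 1359 to 1554 CPM for the whole list in P6 cells. The 8 genes higher in P6 cells act in chromatin in many cell types: the histone methyltransferase Ehmt1 (−1.69), the heterochromatin proteins Cbx1, Cbx3 and Cbx5, the methylation maintenance factor Uhrf1 (−1.92), the dioxygenase Tet1, the HUSH subunit Tasor and the zinc finger protein Zfp809, which recruits silencing to leukemia virus sequences.

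Most genes of the Sertoli cell and mesenchyme lists went the other way. Of 17 Sertoli cell genes tested of 31, 14 were higher in P6 and 3 higher in P5 cells, with a median of −3.09. The follicle-stimulating hormone receptor Fshr had 1.38, 30.5, 22.6 and 2.31 CPM in P5 cells and 188 to 260 CPM in P6 cells. The steroidogenic transcription factor Nr5a1 fell by 3.87 on the log2 scale (SE 0.35, limma FDR 4.33e-06) from P6 to P5 cells. The prostaglandin receptor Ptgfr ran against its list in F1, with 16.4 ± 4.76 CPM (SD, n = 4) in P5 and 0.709 ± 0.581 CPM (SD, n = 5) in P6 cells, a log2 difference of 4.33. In F3 controls Ptgfr did not pass the test, at −0.12 (limma FDR 0.956), or 2.34 (limma FDR 0.173) without F3 P5 libraries 1 and 2, which stood apart. Of 10 Leydig cell genes tested of 18, 4 were higher in P6 cells, beside 26.2% of all host genes. They were led by the prolactin receptor Prlr at 10.1 ± 12.8 CPM (SD, n = 4) in P5 and 536 ± 102 CPM (SD, n = 5) in P6 cells, followed by Kcnk3 and Thbs2. The other 6 Leydig cell genes were not called, among them the steroidogenic enzymes Cyp11a1 (−1.17, limma FDR 0.147) and Cyp17a1 (−1.75, limma FDR 0.113) and the luteinizing hormone receptor Lhcgr (0.22, limma FDR 0.779), and the list median was −1.81. Of 23 peritubular and interstitial mesenchyme genes tested of 33, 20 were higher in P6 and 2 higher in P5 cells, with a median of −3.29. The hedgehog effector Gli2 differed by −6.94 and the fibrillin gene Fbn1 by −6.02 on the log2 scale, whereas Ebf2 had 318 reads in P5 cells and none in P6 cells, at least 115-fold higher in P5 cells. Of 11 endothelial genes tested of 16, 7 were higher in P5 cells, beside 47.1% of all host genes, among them Ptprb, Erg, Flt1 (4.96) and Vwf (4.94), and 2 were higher in P6 cells, the junction protein Cdh5 (−4.95) and Eng (−2.70), beside 26.2% of all host genes. Ptprb had 702 P5 reads against 2 P6 reads, a ratio of 379 with an exact 95% interval from 105 to 3137, and Erg 309 against 1, a ratio of 334 with an interval from 59.5 to 13226. The endothelial list summed to 243 to 403 CPM in P5 and 144 to 222 CPM in P6 cells. Blood genes (3 higher in P5 and 2 higher in P6 of 11 tested of 19, with Runx1 at 3.99 and Ptpn6 at 2.79) and housekeeping genes (4 and 5 of 14 tested of 26, with Emc7 at −2.09, Tbp at 1.92 and Rab7 at −1.89) had medians of 0.25 and −0.068, and their counts are read beside the 47.1% and 26.2% of all host genes that were higher in P5 and in P6 cells. With the density of each library subtracted, 3 blood genes were higher in P5 and 4 higher in P6 cells of 10 tested and their median turned to −0.78, while 6 endothelial genes were higher in P5 and 2 higher in P6 cells of 11 tested, with a median of 1.44 against 2.11 before, beside 44.2% and 27.9% of all host genes.

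**Figure D1:**
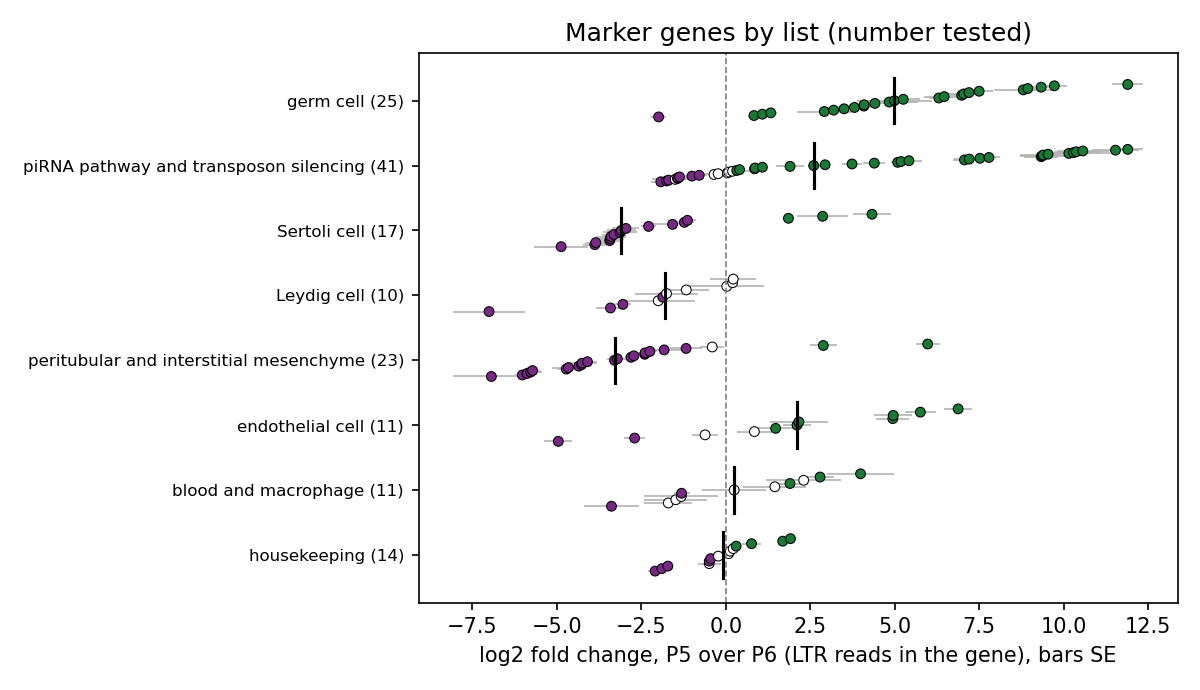
Log2 difference of P5 over P6 cells for each tested gene of 8 marker lists, measured as LTR reads inside the gene. Bars are SE, short vertical lines are list medians, green and purple points passed an FDR of 0.05 in limma (higher in P5 and in P6 cells) and open points did not. The germ cell list lies to the right at a median of 4.99, the Sertoli cell and mesenchyme lists to the left at −3.09 and −3.29.

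Somatic reads in the P5 libraries and germ cell reads in the P6 libraries were measured for each whole list. The Sertoli cell list summed to 502 to 1510 CPM in P5 and 3863 to 4974 CPM in P6 cells, and library 43-5 held the upper P5 value. The mesenchyme list summed to 359 to 531 CPM in P5 and 5958 to 7840 CPM in P6 cells, and the Leydig cell list to 632 to 776 and 1975 to 2394 CPM. The germ cell list summed to 5125 to 6356 CPM in P5 and 526 to 749 CPM in P6 cells, but in P6 cells most of this came from Dmrt1, with 430 CPM, a gene that Sertoli cells also express. In P6 cells, Prdm14, Sycp1, Lin28b, Figla, Stra8 and Tex13b had no read in any library. The part of carried-over cells in the retroviral values was not tested. The 13 germline, testis and silencing genes that the study names for these same cell populations share Dazl, Ddx4 and the piRNA factors with the lists above and are not independent evidence of a direction. Of these, 8 were tested and 8 were higher in P5 cells, with a median of 9.44.

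Of the reads that fell at LTR loci, a larger share lay outside genes in germ cells. This share was 5.08%, 5.06%, 6.18% and 3.84% in P5 libraries 43-4, 43-5, 44-1 and 48-4. In P6 libraries 1, 2, 3, 4 and 12 it was 1.42%, 1.34%, 1.58%, 1.15% and 1.10%. All P5 shares exceeded all P6 shares, at 5.04% ± 0.956 (SD, n = 4) against 1.32% ± 0.195 (SD, n = 5), a difference of 3.72 percentage points. The exact two-sided permutation test gave p = 0.015873, the smallest p that 4 against 5 libraries allow. With P5 libraries 43-4 and 43-5 averaged as 1, the difference was 3.71 points and p = 0.0357, the smallest exact p for 3 against 5. The 95% Wilson interval of a single share reached at most 0.0217 points to either side, which covers counting error only. P4 cells, the other EGFP+ gate of the same F1 controls, had shares of 2.13% to 2.51%, between the P5 and P6 values.

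Of the loci outside annotated genes of GENCODE, 9.11% lay inside a RefSeq gene. At loci at least 10 kb from any GENCODE gene, the share was 2.52% ± 0.519 (SD, n = 4) in P5 and 0.368% ± 0.0894 (SD, n = 5) in P6 cells. Expressed per length, these 397305 loci carried 199, 187, 246 and 151 CPM per Mb in P5 cells and 27.6, 24.5, 34.3, 18.3 and 20.2 CPM per Mb in P6 cells. All P5 libraries lay above all P6 libraries, with p = 0.015873 in the exact permutation test. The 4 families carried nearly equal densities within a P5 library and unequal densities within a P6 library. In P5 libraries, the family of highest density exceeded that of lowest density 1.19 to 1.32 times, and in P4 libraries 1.17 to 1.31 times. In P6 libraries the ratio was 3.13 to 9.52. ERV1 loci carried 50.6 to 67.3 CPM per Mb in P6 cells, ERVK loci 21.1 to 35.8, ERVL-MaLR loci 6.83 to 25.5 and ERVL loci 5.31 to 21.5. P5 and P6 cells therefore lay closest for ERV1, where P5 cells carried 143 to 229 CPM per Mb. What gave the even density of the EGFP+ libraries was not tested, and the values of species and element groups are given beside it.

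**Figure D2:**
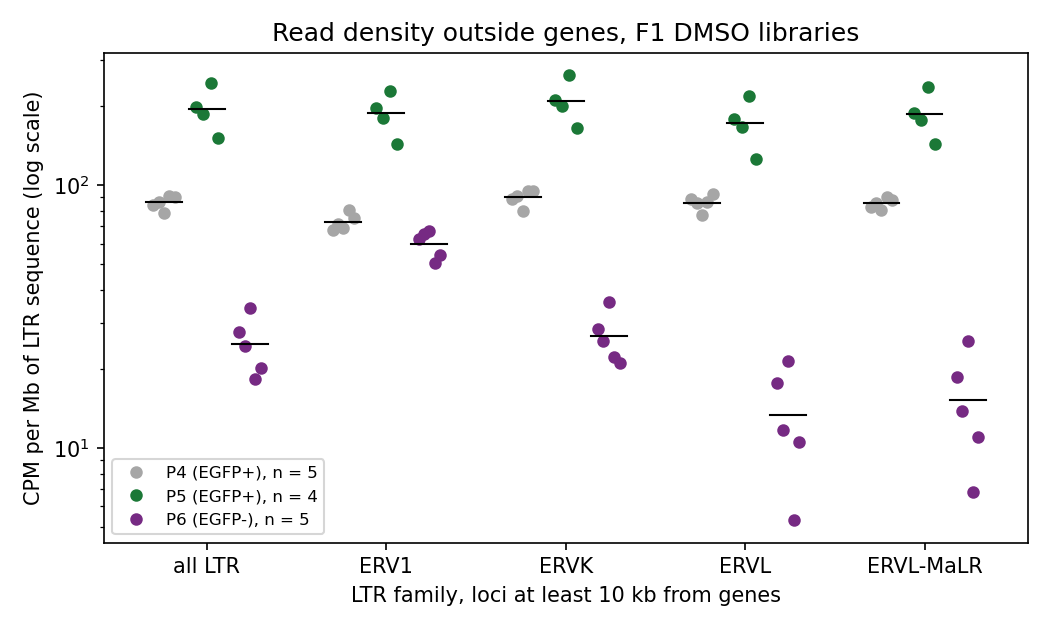
Read density in CPM per Mb of LTR sequence (log scale) at loci at least 10 kb from genes, for all LTR loci and for 4 families, in F1 DMSO libraries of P4 (n = 5), P5 (n = 4) and P6 (n = 5) cells. Points are libraries and lines are group means. P5 libraries lie at 125 to 262 in every family, and P6 libraries at 50.6 to 67.3 for ERV1 but at 5.31 to 25.5 for ERVL and ERVL-MaLR.

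More loci were detected in P5 cells. At 3328166 reads per library, P5 cells detected 199184 ± 15067 loci (SD, n = 4) and P6 cells 140458 ± 5305 (SD, n = 5), with no overlap and an exact permutation p of 0.015873. Outside genes, the numbers were 28570 to 43409 in P5 and 5145 to 11728 in P6 cells. Both in P5 and in P6 cells, most of the detected loci lay in introns. Reads at introns took 87.6% ± 1.01 (SD, n = 4) and 90.3% ± 0.271 (SD, n = 5), and reads at exons 7.34% ± 0.0674 and 8.35% ± 0.156.

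Single loci differed in both directions, and the balance outside genes depended on the filter. Over all 104103 loci tested, 38347 (36.8%) were higher in P5 and 34816 (33.4%) higher in P6 cells by limma, with a median log2 difference of 0.063. The balance of these calls turned with the scaling and the filter, to 33773 and 39195 with total reads, 31597 and 40845 with the deposited values as they are, and 17263 and 17788 at a mean of at least 20 units. It moved the other way with median-ratio size factors, at 39939 and 33663, and without a filter, at 68606 and 38338. Of the 94839 intron loci, 33945 were higher in P5 and 32191 in P6 cells. Outside genes, 2719 of 626329 loci passed the filter on low values, and of these 2044 (75.2%) were higher in P5 and 380 (14%) higher in P6 cells. A locus with reads in 1 population alone could pass only through that population, so these counts describe the loci that passed and not all loci. At a mean of at least 20 units, 320 loci were left, of which 170 were higher in P5 and 139 higher in P6 cells. Without P5 library 44-1, whose reads were concentrated on fewer loci, 2076 loci outside genes were tested. Of these, 1454 were higher in P5 and 403 higher in P6 cells. With libraries 43-4 and 43-5 averaged as 1, 1685 of 2370 were higher in P5 cells. At least 10 kb from genes, 914 (84.1%) of 1087 tested loci were higher in P5 and 95 (8.74%) in P6 cells. By family, loci outside genes were higher in P5 and in P6 cells at 297 and 112 of 458 tested ERV1 loci, 1025 and 158 of 1324 ERVK loci, 177 and 20 of 216 ERVL loci, and 538 and 89 of 712 ERVL-MaLR loci.

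When the loci outside genes were summed by species, nearly every species was higher in P5 cells. Of 569 species tested, 537 (94.4%) were higher in P5 and 15 (2.64%) higher in P6 cells by limma, and the median log2 difference was 3.32, or 9.97-fold. With P5 libraries 43-4 and 43-5 averaged as 1, 533 of 565 species were higher in P5 and 13 higher in P6 cells. All 4 P5 libraries lay above all 5 P6 libraries in 522 (91.7%) species, and all P6 above all P5 libraries in 12 (2.11%). Because this median shift moves all species together, differences were also computed relative to it, after TMM scaling over the species totals outside genes themselves, a scale added after seeing the data. On the relative scale, 165 (29.0%) species were higher in P5 and 107 (18.8%) higher in P6 cells, with a median of 0.44. With the loci inside genes included, 420 (63.2%) of 665 species were higher in P5 and 136 (20.5%) in P6 cells. This split depended on the scaling, at 310 and 219 with total reads and 249 and 246 with the deposited values as they are.

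**Figure D3:**
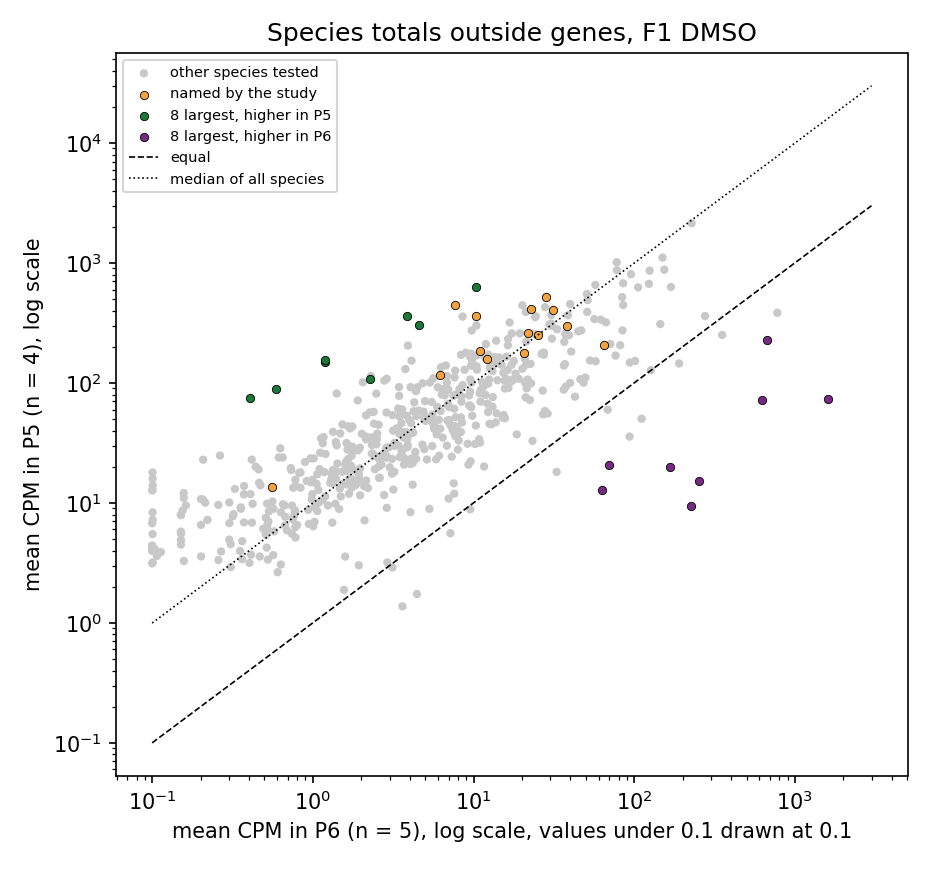
Mean CPM of each of 569 species in P5 (n = 4) against P6 (n = 5) cells, summed over loci outside genes, both axes logarithmic. The dashed line marks equal levels and the dotted line the median difference of 9.97-fold. Green and purple points are the 8 species with the largest difference in each direction, orange points are species the study names, and the purple points lie below the dashed line by up to 4.59 on the log2 scale.

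The 8 species with the largest differences toward P5 cells were ERVK elements, apart from the MaLR internal region ORR1C1-int. RLTR10D2, an ERVK LTR, had 150, 127, 156 and 160 CPM in the P5 libraries and 2.52, 0, 1.51, 0 and 1.89 CPM in the P6 libraries. It differed by 7.29 on the log2 scale (SE 0.64, limma FDR 3.46e-09). MMERVK10D3_LTR, an LTR of the MMERVK10 elements, had 55.6 to 99.2 CPM in the P5 libraries and 0.406 ± 0.456 CPM (SD, n = 5) in P6 cells, a difference of 7.06. RLTR44 was represented by its LTRs and an internal region. RLTR44-int had 379, 339, 428 and 295 CPM in P5 cells and 4.28, 4.53, 8.06, 0 and 2.43 CPM in P6 cells. Its LTR species RLTR44E and RLTR44B stood at 88.3 ± 11.1 and 154 ± 29.4 CPM (SD, n = 4) in P5 cells and at 0.592 ± 0.825 and 1.20 ± 0.840 CPM (SD, n = 5) in P6 cells. The differences of the RLTR44 species were 7.07, 7.29 and 7.03 on the log2 scale. RMER17B had 656, 712, 695 and 446 CPM in P5 cells against 3.51 to 15.4 CPM in P6 cells, a difference of 6.05. RLTR27 differed by 6.09 and ORR1C1-int by 5.92. That the libraries of P5 and P6 cells do not overlap in these 8 species was a condition of their choice.

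The density of these species was set beside that of their own libraries as a description, since species chosen for large differences toward P5 cells have high P5 values by that choice, and some passed the filter on low values through P5 cells alone. At loci at least 10 kb from genes, the density of RLTR44E was at least 15.1 times that of all LTR loci of the same P5 library, that of RLTR10D2 at least 10.3 times, that of RLTR44B 8.77 times, that of MMERVK10D3_LTR 7.62 times and that of RLTR27 6.21 times. The corresponding minimum was 2.37 for RLTR44-int, 2.14 for RMER17B and 1.11 for ORR1C1-int. On the relative scale, which shifts all species together, the 8 differed by 3.00 to 4.69 on the log2 scale, a direction that their choice as the largest differences fixes. P4 cells carried 125 CPM of RLTR10D2 and 51.1 CPM of RLTR44E, below the P5 means, and 86.1 CPM of RLTR44-int.

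The 8 species with the largest differences toward P6 cells were 4 ERV1 and 4 ERVK species. RLTR4_MM-int, the internal region of a leukemia virus group, had 1849, 1710, 1748, 1569 and 1130 CPM in P6 libraries 1, 2, 3, 4 and 12 and 69.8, 106, 77.1 and 41.0 CPM in the P5 libraries. It differed by −4.50 on the log2 scale (SE 0.24, limma FDR 1.31e-11), and its LTR RLTR4_Mm by −3.08. RNERVK23-int had 203 to 249 CPM in P6 and 10.8, 11.8, 5.65 and 9.24 CPM in P5 cells, a difference of −4.59. RLTR30D_RN differed by −4.39, with 17.1, 29.5, 3.43 and 10.4 CPM in P5 cells and 215 to 274 CPM in P6 cells. IAPEY4_I-int, an intracisternal A particle (IAP) internal region, had 610, 702, 697, 567 and 544 CPM in P6 cells and 68.7, 66.1, 94.0 and 60.4 CPM in P5 cells, and its LTR IAPEY4_LTR 63.1 ± 5.03 CPM (SD, n = 5) against 12.8 ± 2.35 CPM (SD, n = 4). ERVB4_1B-I_MM-int had 568, 656, 826, 747 and 544 CPM in P6 cells and 211, 258, 300 and 142 CPM in P5 cells, a difference of −1.59. RLTR6_Mm, the LTR of VL30 elements, differed by −1.76. These 8 were likewise chosen among species whose libraries do not overlap. P4 cells had 6.48 CPM of RNERVK23-int, 31.6 of RLTR4_MM-int, 20.9 of IAPEY4_I-int and 72.0 of ERVB4_1B-I_MM-int, each below the P5 mean. The other 7 species called higher in P6 cells, which fall outside the rule for named species and were looked up after their values were seen, were RMER16A3, MLT1F2-int, LTR108a_Mam, MuLV-int, MMVL30-int, IAPLTR3 and IAPEz-int, at −0.58 to −1.42 on the log2 scale.

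**Figure D4:**
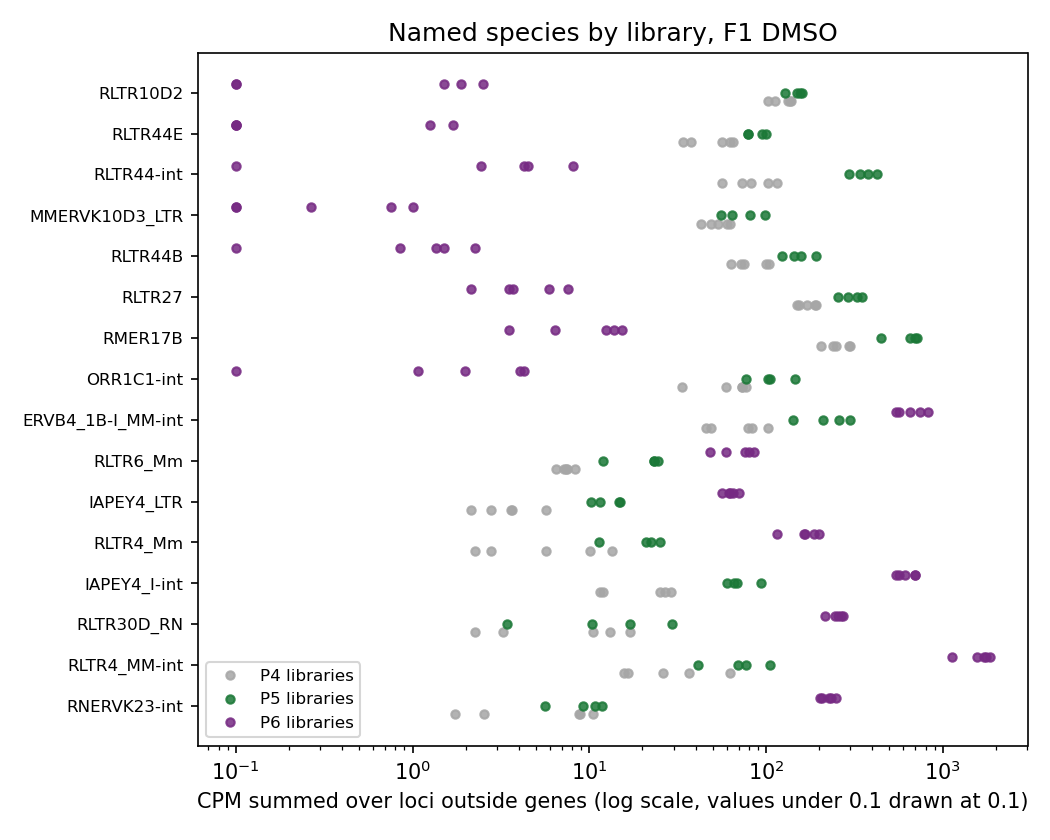
CPM summed over loci outside genes (log scale, values under 0.1 drawn at 0.1) of 16 species in each F1 DMSO library of P4, P5 and P6 cells. The upper 8 species are those with the largest differences toward P5 cells and the lower 8 toward P6 cells. All 16 were chosen among species whose P5 and P6 libraries do not overlap, and RLTR4_MM-int reaches 1130 to 1849 CPM in P6 cells.

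The number of loci that carried the reads varied among both the P6 and the P5 species. All 4249 reads of RNERVK23-int outside genes in P6 cells fell on 1 of its 30 loci, chr17:34998194-34998562 (GRCm38), 2.42 kb from Vars, a tRNA synthetase gene. The locus of RLTR30D_RN that held 64.7% of its P6 reads lies beside it, at chr17:34997140-34997395. Of the P6 reads of IAPEY4_I-int, 69.7% fell on chr7:48124450-48132115, and 74.4% of those of IAPEY4_LTR on the adjoining chr7:48124124-48124449, which is 6.68 kb from Gm28665. Of the P6 reads of RLTR4_MM-int, 39.1% fell on chr4:133096444-133099025 and 31.5% of those of RLTR4_Mm on chr4:133101137-133101355. ERVB4_1B-I_MM-int had 40.1% of its P6 reads on chrY:59665192-59665901. Counting from the strongest locus down, 1 locus gave at least 50% of the reads of RNERVK23-int, RLTR30D_RN, IAPEY4_I-int and IAPEY4_LTR, 2 loci those of RLTR4_MM-int and ERVB4_1B-I_MM-int, 3 those of RLTR4_Mm and 15 those of RLTR6_Mm. In P5 cells, 112 loci were needed for RMER17B, 53 for RLTR27, 11 for MMERVK10D3_LTR, 10 for RLTR10D2, 9 for RLTR44-int, 6 each for RLTR44B and RLTR44E and 3 for ORR1C1-int. Species differ in their number of loci, from 30 for RNERVK23-int to 1964 for RMER17B, and these counts were not tested. The strongest P5 loci of MMERVK10D3_I-int, IAP-d-int and RLTR10D2 form 1 run at chr11:31548397-31549682, 115 to 116 kb from Bod1, which held 12.1%, 11.8% and 23.6% of their P5 reads, so that these 3 species totals are not independent.

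The distance to genes bore on the species higher in P6 cells. RNERVK23-int and RLTR30D_RN had no P6 read at loci at least 10 kb from genes, and IAPEY4_I-int had 7.6% of its P6 reads there. RLTR4_MM-int kept 16.6% and ERVB4_1B-I_MM-int 62.4%. Counted at such loci alone, 491 (96.1%) of 511 species were higher in P5 and 10 (1.96%) higher in P6 cells, with RLTR4_MM-int at −3.41 and IAPEY4_I-int at −1.51 on the log2 scale.

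The study names 19 species as up- or down-regulated in TBT against DMSO offspring, a contrast other than that of P5 and P6 cells. Of these, 18 were tested, with 16 higher in P5 and 2, IAPEY4_I-int and ERVB4_1B-I_MM-int, higher in P6 cells. Over all species, 94.4% were higher in P5 and 2.64% higher in P6 cells. The median log2 difference of the named species was 3.96 against 3.32 over all species. MMERVK10D3_I-int had 446 ± 37.4 CPM (SD, n = 4) in P5 and 7.67 ± 2.32 CPM (SD, n = 5) in P6 cells, a difference of 5.85 that was 2.81 on the relative scale. IAP-d-int, at 363 ± 69.4 and 10.3 ± 3.34 CPM, differed by 5.13 and by 2.08 on the relative scale. RLTR20A, RMER3D-int, MMERVK10C-int, ORR1E-int and MMERVK9C_I-int differed by 4.18 to 4.72. RLTR1B-int, an ERV1 element, had 403 ± 54.1 CPM (SD, n = 4) in P5 and 31.1 ± 4.97 CPM (SD, n = 5) in P6 cells and a difference of 3.69. For MuRRS-int, a leukemia virus relative, P5 library 44-1 held 302 CPM against 109 to 114 CPM in the other P5 libraries, and P6 cells had 12.2 ± 6.71 CPM (SD, n = 5). Relative to the other species, MuRRS-int (limma FDR 0.070), IAP1-MM_I-int (0.107), MMERGLN-int (0.073), MMERVK9E_I-int (0.729) and RMER16-int (0.971) did not pass the test. MYSERV6-int had 209 ± 55.4 CPM (SD, n = 4) in P5 and 65.1 ± 21.1 CPM (SD, n = 5) in P6 cells, and its direction turned from 1.70 to −1.36 on the relative scale (limma FDR 6.0e-06).

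Grouped by element type, 23 (92%) of 25 groups were higher in P5 cells and 1 (4%) higher in P6 cells at an adjusted p of 0.05 in the exact permutation test, whose smallest adjusted p was 0.018. RLTR44 and RLTR45 had 1233 ± 179 CPM (SD, n = 4) in P5 and 36.1 ± 11.7 CPM (SD, n = 5) in P6 cells, and MMERVK10 and RLTR10 had 2481 ± 400 and 120 ± 40.1 CPM. These were differences of 5.14 and 4.42 on the log2 scale, and RLTR1B followed at 3.84, MMERVK9 and RLTR9 at 3.54, RMER16 and RMER17 at 3.49 and RMER19 at 3.36. At the other end, MERVL and MT2_Mm, which are known for their activity in early embryos, had 389 ± 75.2 and 193 ± 27.5 CPM, a difference of 1.00. MTA elements differed by 1.56, IAP LTRs by 1.60 and ETn and MusD by 1.86. The order among these low groups changed at loci at least 10 kb from genes. There MERVL and MT2_Mm stood at 2.45, MTA elements at 2.53, IAP LTRs at 2.11 and ETn and MusD at 1.44. They stayed below RLTR44 and RLTR45 (6.23), MMERVK10 and RLTR10 (4.88) and RMER16 and RMER17 (3.30) at these loci. The older ORR1, MLT1, MTB to MTE and MT2 elements, most of which have long lost their coding sequence, differed by 2.57 to 3.16.

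The exception in direction was the group of VL30 and RLTR6, with 623 ± 129 CPM (SD, n = 4) in P5 and 902 ± 134 CPM (SD, n = 5) in P6 cells, a difference of −0.55 without overlap between libraries (adjusted p = 0.018 in the exact permutation test). At loci at least 10 kb from genes this difference was −0.19 (adjusted p = 0.413). Of the 5 tested VL30 and RLTR6 species, 2 were higher in P5 and 2 higher in P6 cells, with a species median of 0.50. In 3 groups the libraries overlapped, although most of their species were higher in P5 cells, beside 94.4% of all species. These were 5 of 8 tested species of IAP internal regions, 30 of 33 of MuLV, MuRRS and MURVY and 19 of 20 of ERVB. Another 2, 3 and 1 were higher in P6 cells. Their species medians were 3.24, 3.79 and 3.73 on the log2 scale. A group total follows its most abundant species. IAP internal regions, which hold the viral genes of the IAP elements, had 1021, 1019, 1451 and 1001 CPM in P5 cells and 1082, 1107, 1141, 923 and 932 CPM in P6 cells, a difference of 0.10 with p = 0.556 in the exact permutation test. It was −0.022 without P5 library 44-1, and 2.00 at loci at least 10 kb from genes (adjusted p = 0.0173). MuLV, MuRRS and MURVY differed by 0.46 (adjusted p = 0.0496) and ERVB by 0.62 (adjusted p = 0.0345). Both calls were lost in the exact permutation test when a single library was left out, with differences of 0.35 to 0.66: that of MuLV, MuRRS and MURVY without P5 library 43-4 or 43-5 or any 1 P6 library (adjusted p = 0.0595 to 0.112), and that of ERVB without P5 library 43-4 or 43-5 or P6 library 1, 2, 4 or 12 (adjusted p = 0.0595 to 0.0776). Fewer libraries also allow fewer permutations. At loci at least 10 kb from genes, MuLV, MuRRS and MURVY differed by 1.73 (adjusted p = 0.0173) and ERVB by 0.46 (adjusted p = 0.0496) in the same test. Set against the density of all LTR loci in their libraries, VL30 and RLTR6 stood at 8.04 times in P6 and 0.86 times in P5 cells, ERVB at 9.73 and 1.65 times, ETn and MusD at 3.54 and 1.18 times and MuLV, MuRRS and MURVY at 2.65 and 1.10 times. RLTR1B (3.96 times) and RLTR44 and RLTR45 (3.02 times) exceeded that density most in P5 cells, while MERVL and MT2_Mm stood at 0.22 times.

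A set of 12 loci outside genes illustrates the extremes at single copies. They were the 6 with the largest difference in each direction among loci at least 10 kb from genes, with a mean of at least 20 units and no overlap of libraries. The sequences of the 3 that are no longer than 300 bases are shown as the plus strand of GRCm38, read from RefSeq GRCm38.p6, because the loci themselves carry the finding. Capitals mark AATAAA, the canonical polyadenylation signal, or TTTATT, its complement on the minus strand.
MTEa, chr9:99170793-99171006: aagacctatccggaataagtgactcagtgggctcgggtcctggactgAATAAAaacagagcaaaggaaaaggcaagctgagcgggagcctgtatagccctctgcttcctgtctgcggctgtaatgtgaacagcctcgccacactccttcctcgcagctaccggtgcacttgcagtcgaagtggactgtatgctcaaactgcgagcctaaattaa
MTB_Mm, chr9:121551150-121551403: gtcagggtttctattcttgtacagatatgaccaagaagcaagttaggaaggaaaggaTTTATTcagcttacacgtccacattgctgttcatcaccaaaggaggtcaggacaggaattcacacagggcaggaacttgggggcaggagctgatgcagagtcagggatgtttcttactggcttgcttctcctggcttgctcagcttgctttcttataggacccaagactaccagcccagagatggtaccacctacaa
RLTR4_Mm, chr4:133101137-133101355: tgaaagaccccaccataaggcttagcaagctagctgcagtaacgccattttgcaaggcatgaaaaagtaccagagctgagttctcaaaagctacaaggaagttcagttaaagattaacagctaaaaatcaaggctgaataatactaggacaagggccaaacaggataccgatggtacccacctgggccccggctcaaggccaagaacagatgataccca

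The MTEa copy is an LTR of the MaLR family and holds the signal on its plus strand, the MTB_Mm copy, another MaLR LTR, holds it on its minus strand, and the RLTR4_Mm copy, a leukemia virus LTR, holds it on neither strand. Windows of the same 3 lengths were cut from the start of other LTR loci outside genes, again without chromosome 18. Of these, 28.4%, 31.1% and 28.7% held the hexamer AATAAA on either strand. The GC content of the MTEa copy was 52.3% and that of the RLTR4_Mm copy 46.1%, against medians of 44.4% and 44.7% over windows of their lengths. A match of these letters is a description and does not show that the site is used.

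The MTEa copy had 1000, 737, 1290 and 1160 reads in the P5 libraries and 2, 4, 0, 0 and 0 reads in the P6 libraries, a log2 difference of 9.01 (SE 0.43, limma FDR 2.96e-10). It lies 30.2 kb from Pik3cb in the annotation used for the calls but inside Gm33857, a long non-coding RNA gene of RefSeq. The MTB_Mm copy, 15 kb from Gm47095, had 142, 120, 260 and 273 P5 reads and none in P6 cells, at least 286-fold higher in P5 cells when 3 reads over the P6 group are the floor. An MTC copy at chr4:153085543-153085860 had 265, 215, 243 and 384 P5 reads, and an RMER19B copy at chr4:153086505-153087353, less than 1 kb away, 229, 187, 207 and 374. Neither had a P6 read, and they were at least 399-fold and 359-fold higher in P5 cells. Both lie in the same stretch, 58.2 to 59.7 kb from Gm13173, so that their reads are not independent. Another RMER19B copy at chr17:88810767-88811609, 18.8 kb from the luteinizing hormone receptor gene Lhcgr, had 133, 125, 177 and 194 P5 reads, and an RLTR44-int copy at chr12:55552212-55554761 had 123 to 172, again with no P6 read. In P4 cells, the MTC copy had 265 to 438 reads and the MTEa copy 262 to 324.

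The RLTR4_Mm copy, 12 kb from Gm26615, had 202, 221, 227, 200 and 141 reads in the P6 libraries and 3, 10, 10 and 3 in the P5 libraries, a log2 difference of −5.04 (SE 0.31, limma FDR 3.49e-09). It is the same locus that held 31.5% of the P6 reads of its species, and 7 neighbouring LTR loci within 10 kb that could be tested were all higher in P6 cells. At every other named locus with such neighbours, these too were all called in the direction of the named locus. Whether the reads of a copy belong to a longer transcribed stretch was not tested. An IAPLTR3-int copy at chr13:12829120-12831628, 29 kb from Prl2c3, had 93, 86, 99, 95 and 59 P6 reads and no P5 read, at least 133-fold higher in P6 cells. A pair of internal regions of ETn elements was higher in P6 cells although the ETn and MusD group as a whole was higher in P5 cells. The ETnERV3-int copy at chr7:106267266-106269782 had 208, 260, 167, 235 and 203 P6 reads against 2, 24, 0 and 0 P5 reads, and the ETnERV2-int copy at chr7:48156783-48157107 had 121, 136, 147, 109 and 200 against 3, 9, 0 and 2. Their 4 and 5 tested neighbours within 10 kb, most of them of other species groups, were also all higher in P6 cells. The RLTR4_MM-int copy at chr8:119890278-119894347 had 225 P6 reads and 1 P5 read in all, a ratio of 208 with an exact 95% interval from 37.0 to 8263. A MuLV-int copy at chrY:58847310-58854906 had 215 and 2 reads, a ratio of 99.5 with an interval from 27.2 to 827. Of the loci that met the rule before the 6 largest were taken, 69 were higher in P5 and 35 higher in P6 cells.

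The same contrast was available in control animals of the F3 generation, with 4 P5 and 4 P6 libraries that enter no F1 value. Of 600 species tested outside genes, 561 (93.5%) were higher in P5 and 6 (1%) higher in P6 cells by limma, with a median log2 difference of 4.45. The F3 P5 libraries 1 and 2 stood apart, with 2017404 and 1606422 reads and 23.5% and 27.9% of them outside genes, against 8.75% and 6.12% in libraries 3 and 4 and 1.23% to 1.41% in P6 libraries. Without these 2 libraries, 550 of 584 species were higher in P5 and 12 in P6 cells, with a median log2 difference of 3.96. Of the 537 species higher in P5 cells of F1, 529 were also called higher in P5 cells of F3 and 7 were tested there without a call. Of the 15 higher in P6 cells of F1, 6 were called in the same direction in F3, 8 were not called and 1, IAPEz-int, was called in the opposite direction. Without F3 P5 libraries 1 and 2, 12 of the 15 were called in the same direction, 3 were not called and none was called in the opposite direction.

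**Figure D5:**
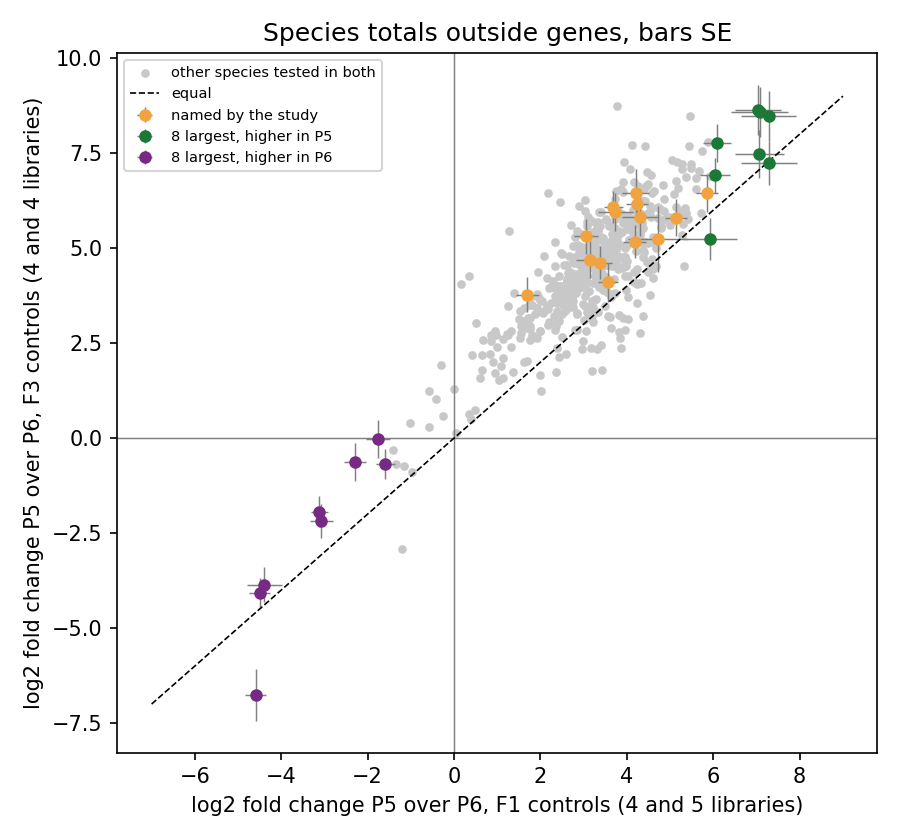
Log2 difference of P5 over P6 cells for species totals outside genes in F1 controls (4 and 5 libraries) against F3 controls (4 and 4 libraries), with SE bars on named species and a dashed line of equality. Most species lie above the line, with medians of 3.32 in F1 and 4.45 in F3. Of the 8 purple species, RNERVK23-int lies at −6.76 in F3 and RLTR6_Mm at −0.022.

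RLTR44-int, RLTR44E and RLTR44B differed by 8.58, 8.47 and 8.63 on the log2 scale in F3 controls, RMER17B by 6.91, RLTR27 by 7.76 and RLTR10D2 by 7.24. In the same order, the values without F3 P5 libraries 1 and 2 were 8.02, 7.39, 7.59, 5.98, 6.78 and 6.41. RNERVK23-int, RLTR4_MM-int, RLTR30D_RN and IAPEY4_I-int were again higher in P6 cells, at −6.76, −4.08, −3.86 and −1.94. With F3 P5 libraries 1 and 2 left out, they stood at −5.22, −4.38, −3.99 and −2.72. IAPEY4_LTR (−0.63, limma FDR 0.22), ERVB4_1B-I_MM-int (−0.68, limma FDR 0.10) and RLTR6_Mm (−0.022, limma FDR 0.96) did not pass the test in F3. Without F3 P5 library 1, IAPEY4_LTR stood at −1.13 (limma FDR 0.025) and ERVB4_1B-I_MM-int at −1.16 (limma FDR 0.00256). Without F3 P5 libraries 1 and 2, all 3 passed the test, at −1.54 for IAPEY4_LTR (limma FDR 0.0011), −1.33 for ERVB4_1B-I_MM-int (limma FDR 0.000982) and −1.02 for RLTR6_Mm (limma FDR 0.0132). Tested directly, the F3 difference exceeded the F1 difference in 52 (8.84%) of 588 species and was smaller in 0, or 1 at an unadjusted p of 0.05 in limma, with a median shift of 1.14. Without F3 P5 libraries 1 and 2, which leaves 2 P5 libraries, 6 of 577 species were larger in F3 and 0 smaller, or 84 and 6 at an unadjusted p of 0.05 in limma, and the median shift was 0.64. At single loci, the MTEa copy had 4782, 2279, 2772 and 1467 reads in F3 P5 libraries and 10, 0, 20 and 10 in F3 P6 libraries. The IAPLTR3-int copy on chromosome 13, without a P5 read in F1, had 154 reads in F3 P5 library 3 and none in the other 3 P5 libraries. Of 13367 host genes tested in F3, 2347 (17.6%) were higher in P5 and 1661 (12.4%) higher in P6 cells, and without P5 libraries 1 and 2 these were 4661 and 2905 of 12531. Of 25 germ cell genes tested in F3, 13 were higher in P5 and 1, Etv5, higher in P6 cells, against 24 and 1 in F1, and without P5 libraries 1 and 2 these were 20 and 1. Dazl differed by 7.27 and Mov10l1 by 6.85, and by 8.35 and 8.14 without these libraries, while Etv5 stood at −5.08 (limma FDR 0.043) and −1.94 (limma FDR 0.00518).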

How the data were processed

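Per the labels and the methods of the study, RNA of FACS-sorted cells was turned into oligo-dT primed SMART-seq libraries, trimmed with Trim Galore and aligned with STAR to GRCm38 (mm10). The authors counted reads at RepeatMasker LTR loci with a modified ERVmap and deposited 1 TMM-normalized CPM signal per locus and library, in separate files for germline and somatic cells. In each library, 100% of the nonzero values were integer multiples of the smallest one (tolerance 0.01), so the reads were recovered from the deposited signal, joined by locus and scaled together by TMM. The deposited values had been planned for as CPM and were handled as a signal on that scale. Loci were placed outside genes, in introns or in exons with GENCODE on GRCm38.

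The test was limma (version 3.58.1, R version 4.3.3, trend in the variance) on log2(CPM + 1 unit), 1 unit being 0.267 CPM. Features needed a mean of 5 units or more, and the FDR (Benjamini-Hochberg) was held at 0.05. Such differences understate the change of low features. Library shares and ERV groups were tested with two-sided exact permutation tests. A fold against a group without reads was set against 3 reads over the group. The recovered reads were also tested with edgeR 4.0.16 and DESeq2 1.42.0. The tests were tested on simulated data. The simulation changed features equally often in both directions and took the library scaling as known. It therefore does not bear on scaling under a shift of nearly all species. Figures were drawn with matplotlib 3.10.9.

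Named species were the 8 with the largest difference in each direction among called species without overlap of libraries, and those the study names. Named loci were the 6 in each direction at least 10 kb from genes, not on chromosome 18, with a mean of at least 20 units. Named genes were those of the study and the 3 with the largest difference per list. The members, lists and tests were chosen with earlier results of these data known. P5 and P6 cells of F1 share 0 replicate numbers. TBT libraries, DNA methylation and expression of mRNA were not analysed here. The value of 1 gene named by the rule is not reported here.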

Additional observations from a re-analysis of the deposited data

Results flagged for a closer look

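Of 201 values tested for 1 library far from the rest of its group, 24 had such a library, and chance alone flags about 1 in 20 groups. That rate does not apply to the 5 values in which all other libraries of the group had 0 reads. P5 libraries 44-1 and 48-4 held 5 of these each. Library 44-1 was lowest for loci detected at equal depth (176896 against 204732 to 210140) and for intron loci (139078 against 153675 to 155669). It was highest in CPM for MuRRS-int (302 against 109 to 114), IAP internal regions (1451 against 1001 to 1021) and RMER19 (2129 against 1657 to 1733). Library 48-4 was lowest in CPM for MMERVK9C_I-int (272 against 452 to 472), RLTR6_Mm (11.9 against 23.2 to 24.5) and ETn and MusD (652 against 907 to 916), and highest for the piRNA factors Piwil4 (348 against 186 to 206) and Tdrd9 (2477 against 1825 to 1919). In P5 library 43-4, the Leydig cell gene Kcnk3 had 52.4 CPM against 10.2 to 13.1 CPM, and the RLTR4_MM-int copy on chromosome 8 had 0.276 CPM, from 1 read. In P5 library 43-5, the ETnERV3-int copy on chromosome 7 had 6.43 CPM against 0 to 0.552 CPM, and the MuLV-int copy on chromosome Y had 0.535 CPM, from 2 reads.

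Among P6 libraries, library 3 was highest for IAP-d-int at 16.1 CPM against 7.93 to 9.81 CPM and lowest for Piwil2 at 2.27 CPM against 7.04 to 7.75 CPM. Library 2 was highest for IAP1-MM_I-int at 30.9 CPM against 18.1 to 21.3 CPM, lowest for the RLTR4_MM-int copy on chromosome 8 at 8.21 CPM against 12.1 to 13.6 CPM, and had the single P6 read of Erg, worth 0.283 CPM. Library 1 was highest for RLTR20A at 2.52 CPM against 0 to 0.252 CPM and had both P6 reads of Ptprb, worth 0.503 CPM. Library 4 was highest for Flt1 at 7.48 CPM against 0.810 to 1.42 CPM and had the single P6 read of Piwil4, worth 0.267 CPM. Library 12 was lowest for the IAPLTR3-int copy on chromosome 13 at 15.9 CPM against 23.4 to 25.4 CPM.

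The difference between P5 and P6 cells was larger in F3 than in F1 controls for 5 of 30 named species by an interaction term in limma, beside 52 (8.84%) of all 588 species, whose median shift was 1.14. On the log2 scale, the F3 minus F1 value was 2.31 for RLTR1B-int (limma FDR 0.000943), 2.18 for RMER16-int (limma FDR 0.0124), 2.13 for MuRRS-int (limma FDR 0.0396), 1.99 for MYSERV6-int (limma FDR 0.0223) and 1.82 for MMERVK10C-int (limma FDR 0.0268). The F1 and F3 differences were 3.69 and 6.09 for RLTR1B-int, 3.05 and 5.31 for RMER16-int, 3.73 and 5.95 for MuRRS-int, 1.70 and 3.78 for MYSERV6-int, and 4.24 and 6.15 for MMERVK10C-int. F3 P5 libraries 1 and 2, with 23.5% and 27.9% of reads outside genes, enter these values. Without them, a setting added after the data were seen, the F3 minus F1 value was 1.96 for RLTR1B-int (limma FDR 0.00335), 1.80 for RMER16-int (limma FDR 0.0931), 1.78 for MuRRS-int (limma FDR 0.244), 1.15 for MYSERV6-int (limma FDR 0.211) and 1.29 for MMERVK10C-int (limma FDR 0.237), so that the call held for RLTR1B-int alone among the 5.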

How the results depend on the processing

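Leaving out each library in turn gave 523 to 544 species higher in P5 and 13 to 16 higher in P6 cells outside genes. Over all loci it gave 32122 to 39904 and 32820 to 36048, over loci outside genes 1454 to 2487 and 348 to 403, over species of all loci 369 to 421 in P5 cells, over host genes 5003 to 5652 and 2947 to 3232, and over ERV groups 21 to 23 and 1. The difference in the share outside genes was 3.34 to 4.12 points, and that in detected loci 55074 to 66155. Filters and distance moved the counts. Without a filter, 68606 loci were higher in P5 and 38338 higher in P6 cells of 352653 tested. Outside genes these were 10879 and 683 of 123348. At a mean of at least 20 units the counts were 17263 and 17788 over all loci and 170 and 139 outside genes. Fewer loci were tested there by construction. At least 10 kb from genes they were 914 and 95 loci, 10 species and 0 ERV groups higher in P6 cells, with 0 groups also at an unadjusted p of 0.05. Species totals of all loci gave 249 higher in P5 and 246 higher in P6 cells with the deposited values as they are, and 219 higher in P6 cells with total reads. Chosen after seeing the data, TMM over species totals outside genes gave 165 and 107 in F1 and 143 and 103 in F3, where leaving out P5 libraries 1 and 2 gave 12 higher in P6 cells and leaving out single libraries 538 to 567 and 6 to 9. Host genes of F3 without P5 libraries 1 and 2 gave 4661 and 2905. The F3 minus F1 difference was called in 31 species with total reads and in 6 without F3 P5 libraries 1 and 2. Without these libraries that difference, not called in either fit, was −0.68 for MMERVK10D3_LTR, −0.56 for RLTR20A, −0.10 for RLTR44E and −0.0012 for RMER17B. On the relative scale MYSERV6-int was at −1.36 and RMER16-int at −0.0078. IAP internal regions were at −0.10 with total reads and at −0.022 to 0.14 without single libraries, and RLTR6_Mm in F3 at −0.66 to 0.40. RLTR10D2 had an F3 minus F1 difference of 0.012 with total reads. MuLV, MuRRS and MURVY (adjusted p = 0.248) and ERVB (adjusted p = 0.0518) lost their call with total reads in the exact permutation test. Also added, subtracting each library's density left 1900 and 384 loci outside genes and 5095 and 3221 host genes, and 1607 and 258 loci lay outside RefSeq genes too. No paired analysis was possible because the P5 and P6 libraries of F1 share no replicate number. In F3, the replicate block gave 559 and 6 species against 561 and 6. Same-numbered F3 libraries did not deviate together (correlations −0.00185, −0.0507, 0.00512 and −0.0543), and the labels do not state whether a number marks 1 animal, so the libraries were treated as unpaired. With DESeq2, edgeR's quasi-likelihood test and its likelihood ratio test, 1992, 2126 and 2133 loci outside genes were higher in P5 cells. Named genes kept direction and call in all 587 alternative values, and named loci in 252. Most of them were chosen for large differences in these same F1 libraries, so this stability is no independent evidence. F3 values are not among these alternatives. Of 626329 loci outside genes, 2719 had reads enough to be tested.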
